A study of Mus musculus with 3 samples.

Results

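The collagen IV chains are the proteins of Col4a1, Col4a2, Col4a3, Col4a4, Col4a5 and Col4a6, which are 6 of the 17864 genes listed in all 3 count tables of the series. They were taken by name, and the family was chosen by the levels of Col4a1, Col4a2 and Col4a5 in the stromal subtypes of these same libraries, so that contrast is given as a description and is not tested. The cells came from whole wild-type mouse kidneys at embryonic stage E14.5, of a mixed strain that was mostly CD-1 with 129, and no animal carried a treatment. Drop-seq, 10x Chromium and Fluidigm C1 were each run once on such cells, and the number of embryos is not stated. Drop-seq and 10x Chromium isolate cells in droplets and count molecules by unique identifiers (UMIs), whereas Fluidigm C1 isolates them in chip chambers and its table holds reads.

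Collagen IV is the network-forming collagen of basement membranes, the sheets of matrix under epithelia and around vessels. Each molecule is a triple helix of 3 chains. The Col4a1 and Col4a2 chains together make the network found in nearly all basement membranes of the embryo. The Col4a3, Col4a4 and Col4a5 chains make the network that dominates the mature glomerular basement membrane, where podocytes deposit it, and its loss causes Alport syndrome. Col4a5 and Col4a6 chains share a further network, known from Bowman's capsule, collecting duct and smooth muscle.

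The 6 genes form 3 pairs that start close together and run in opposite directions. Sequence at the starts is printed so that the level of a pair can be read beside it. For Col4a1 with Col4a2 and Col4a4 with Col4a3 it is the overlap of the starts or the stretch between them. For Col4a6 with Col4a5 only 250 bases upstream of Col4a6 and 216 bases upstream of Col4a5 are printed, which do not meet. In the mouse build GRCm38 (mm10), with GENCODE gene models, Col4a1 is on the minus strand at chr8:11198423-11312826 and Col4a2 on the plus strand at chr8:11312805-11449287, so their first exons overlap by 22 bases. Col4a4 is on the minus strand at chr1:82448423-82586849 and Col4a3 on the plus strand at chr1:82586921-82722059, with 71 bases between them. Col4a6 is on the minus strand at chrX:141165403-141474076 and Col4a5 on the plus strand at chrX:141475385-141689234, with 1308 bases between them. The sequences are from RefSeq's promoter table of GRCm38.p6, in which 5 of the 6 chains matched an entry. Each is written 5′ to 3′, and capitals mark the GC box GGGCGG, the CCAAT box CCAAT and the pyrimidine run CCCTCCCC on either strand.
Col4a1 and Col4a2 start overlap, chr8:11312805-11312826, plus strand: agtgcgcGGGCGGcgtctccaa
Between the Col4a4 and Col4a3 starts, chr1:82586850-82586920, plus strand: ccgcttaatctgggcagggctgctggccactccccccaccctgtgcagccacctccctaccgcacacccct
Upstream of Col4a6, chrX:141474077-141474326, minus strand: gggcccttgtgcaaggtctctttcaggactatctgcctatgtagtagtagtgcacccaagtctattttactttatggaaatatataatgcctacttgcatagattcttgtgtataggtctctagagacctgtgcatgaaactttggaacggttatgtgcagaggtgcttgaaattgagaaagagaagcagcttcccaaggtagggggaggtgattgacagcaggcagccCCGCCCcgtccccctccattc
Upstream of Col4a5, chrX:141475169-141475384, plus strand: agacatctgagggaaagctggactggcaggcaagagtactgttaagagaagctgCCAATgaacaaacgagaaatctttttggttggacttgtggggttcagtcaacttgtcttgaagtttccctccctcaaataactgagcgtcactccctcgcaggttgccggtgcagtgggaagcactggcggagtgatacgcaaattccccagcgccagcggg

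Over the 300 bases of each promoter window (250 before and 50 after the start), Col4a1 held 1 GC box and Col4a2 held 3, and both held 1 CCAAT box and 1 pyrimidine run. The Col4a5 window held 1 of each, the Col4a6 window held 1 GC box, and the Col4a4 window held none of the 3 motifs. None of the 5 windows held TATAAA. Among 27025 promoter windows of that length, 35.9% held GGGCGG, 37.9% CCAAT, 10.4% CCCTCCCC and 14.2% TATAAA, on either strand. These matches describe letters only.

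After filtering, 1964 Drop-seq, 2130 10x Chromium and 884 C1 cells remained, with a median of 7060 UMIs, 7369 UMIs and 166639 reads per cell. No cell name was shared between libraries. Clusters were named from marker genes within each library, and each class name stands for cells like that type. All 6 chains were kept out of the clustering. Cap mesenchyme (the nephron progenitors), nephron epithelium, ureteric epithelium, stroma and endothelium were found in every library, podocytes only in Drop-seq (93 cells) and 10x Chromium (78 cells), and a separate mural class (smooth muscle and pericytes) only in 10x Chromium. In all kept cells the libraries held 2123, 1553 and 54041 counts of Col4a1 and 1358, 1964 and 28836 of Col4a2, in the order Drop-seq, 10x Chromium, C1, which is the order of every set of 3 values in the text. Col4a5 had 274, 150 and 1622 counts, Col4a6 32, 29 and 1070, Col4a4 17, 48 and 122, and Col4a3 9, 8 and 166. Levels are counts per 1000000 (CPM) of the summed counts of a class, and 95% intervals are exact Poisson or binomial intervals that cover counting error only, since 1 library per platform leaves no replicate and C1 reads are not separate molecules. In a class sum, fewer expressing cells and less RNA per cell cannot be told apart; the share of cells is given for that reason.

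C1 reads of different chains can be set against each other only per length. For C1 the reads were divided by exon length and depth (RPKM), on the premise, which the labels do not settle, that its reads cover whole transcripts. On that scale all C1 cells together held 44.1 of Col4a1, 26.6 of Col4a2, 1.47 of Col4a5, 0.82 of Col4a6, 0.10 of Col4a3 and 0.07 of Col4a4. Col4a1 and Col4a2 led by far, and on this C1 scale the Col4a3 and Col4a4 pair had the lowest values. In UMIs the order of that pair was reversed, with 9 counts of Col4a3 against 17 of Col4a4 in Drop-seq and 8 against 48 in 10x Chromium. In 10x Chromium Col4a6 (29 counts) was also below Col4a4.

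Endothelium held the most Col4a1 RNA of the classes shared by all libraries, and cap mesenchyme and nephrogenic-zone stroma the least. In endothelium the Col4a1 level was 379, 189 and 629 CPM. In cap mesenchyme it was 72.2, 30.6 and 169 CPM, and the 95% intervals of both classes were apart in each library. Col4a2 stood at 256, 242 and 340 CPM in endothelium and at 65.7, 61.2 and 107 CPM in cap mesenchyme. Endothelium was above cap mesenchyme for both chains within each library, though for Col4a1 the C1 cap mesenchyme level came close to the 10x endothelial level. With every cell thinned to 4000 UMIs or 50000 reads, Col4a1 was counted in 69.9%, 49.7% and 98.6% of endothelial cells and in 20.2%, 8.38% and 78.0% of cap mesenchyme cells (unthinned 86.4%, 73.9% and 100% against 35.4%, 21.5% and 89.0%).

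**Figure D1:**
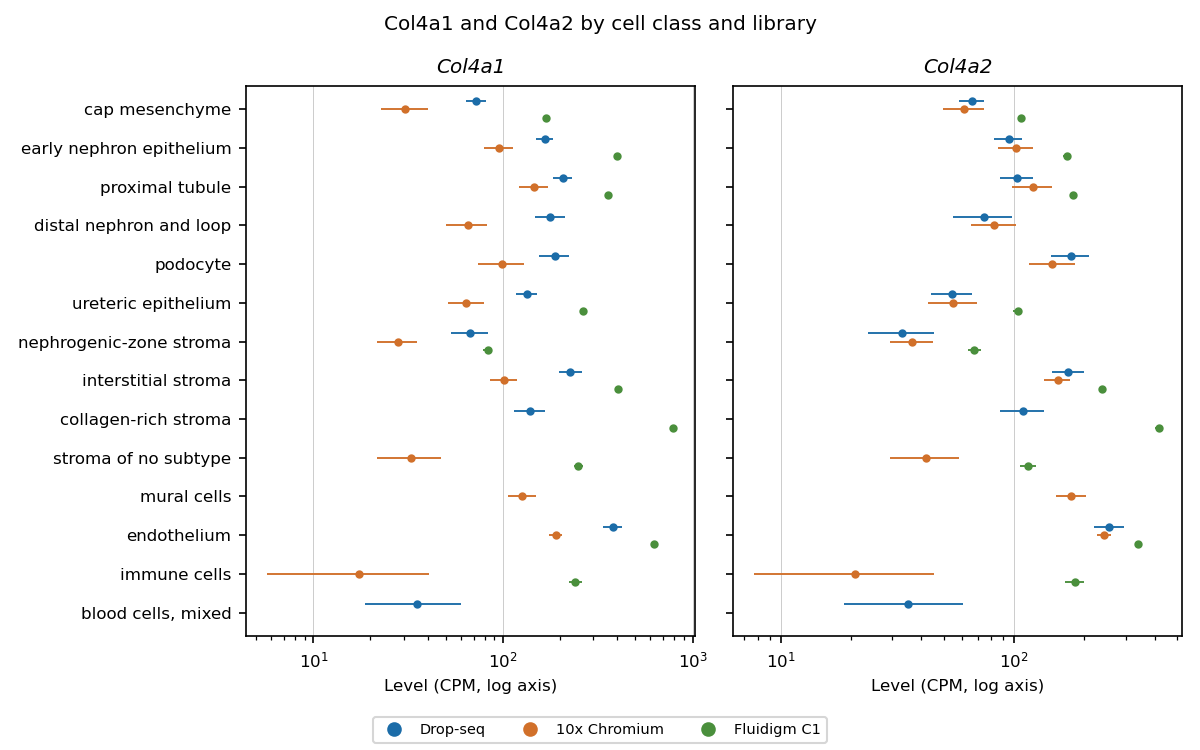
Level of Col4a1 and Col4a2 (CPM, log axis) in each cell class, 1 point per library with its 95% Poisson interval. Endothelium is highest among the classes shared by all libraries in Drop-seq and 10x Chromium, and in C1 only collagen-rich stroma (785 CPM of Col4a1) lies above its 629 CPM.

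Blood-derived classes were taken as the background. The premise that their Col4a1 counts came from free RNA or mixed captures, and not from the cells themselves, was not tested. The 10x immune cells held 17.4 CPM of Col4a1 (5 counts in 56 cells, median 4821 UMIs) and the Drop-seq blood cells 35.2 CPM (13 counts in 63 cells, median 7171 UMIs). With thinning, 6.45% of the 10x immune cells and 9.68% of the Drop-seq blood cells had a Col4a1 count. The 10x shares in cap mesenchyme (8.38%) and nephrogenic-zone stroma (7.12%) were within the binomial interval of the 10x immune share. Only 31 immune cells were deep enough for thinning, so at this depth those shares cannot be told apart from background. The same holds for nephrogenic-zone stroma of Drop-seq (18.2%, where the interval of the blood cells ended at 19.9%). The 14 immune cells of C1 held 241 CPM of Col4a1, above the C1 cap mesenchyme, and 1226 CPM of summed cap mesenchyme markers, with 8 of the 9 listed markers counted and Meox1 at 0. The part of mixed captures in the C1 levels was not tested.

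Tests summed the counts of each class in each library and compared classes across the libraries with edgeR's quasi-likelihood test, with the library as a block and Benjamini-Hochberg adjustment over 9647 genes that had served neither for clustering nor for naming. Col4a3 had too few counts to be tested, so 5 of the 6 chains enter. In endothelium against cap mesenchyme, 2 of the 5 passed an adjusted p of 0.05, where 22.8% of all genes tested passed. Col4a1 was higher by 2.35 on the log2 scale (SE 0.16, adjusted p = 3.71e-08), with 2.40, 2.70 and 1.99 in the 3 libraries. Col4a2 was higher by 1.95 (SE 0.16, adjusted p = 1.23e-07), also in each library. Col4a5 and Col4a6 had negative differences in each library (-0.86 with SE 0.39, adjusted p = 0.122, and -1.94 with SE 0.84, adjusted p = 0.106, edgeR) and did not pass.

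In endothelium against stroma, 4 of the 5 chains passed, where 19.4% of all genes did, and they differed in direction. The stroma sums hold the Col4a1, Col4a2 and Col4a5 counts by which the family was chosen. The calls on these 3 chains are therefore no independent support. Col4a1 (log2 difference 1.49, SE 0.15, adjusted p = 3.60e-06) and Col4a2 (1.40, SE 0.16, adjusted p = 5.38e-06) were higher in endothelium. Col4a5 (-1.44, SE 0.38, adjusted p = 0.0128) and Col4a6 (-3.08, SE 0.82, adjusted p = 0.0125) were lower, each in all 3 libraries. Behind the Col4a6 value lie 0, 2 and 17 endothelial counts. Neither X-linked call held without Drop-seq (edgeR adjusted p = 0.166 for Col4a5 and 0.0824 for Col4a6), and that of Col4a5 was also lost without 10x Chromium (0.106).

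**Figure D2:**
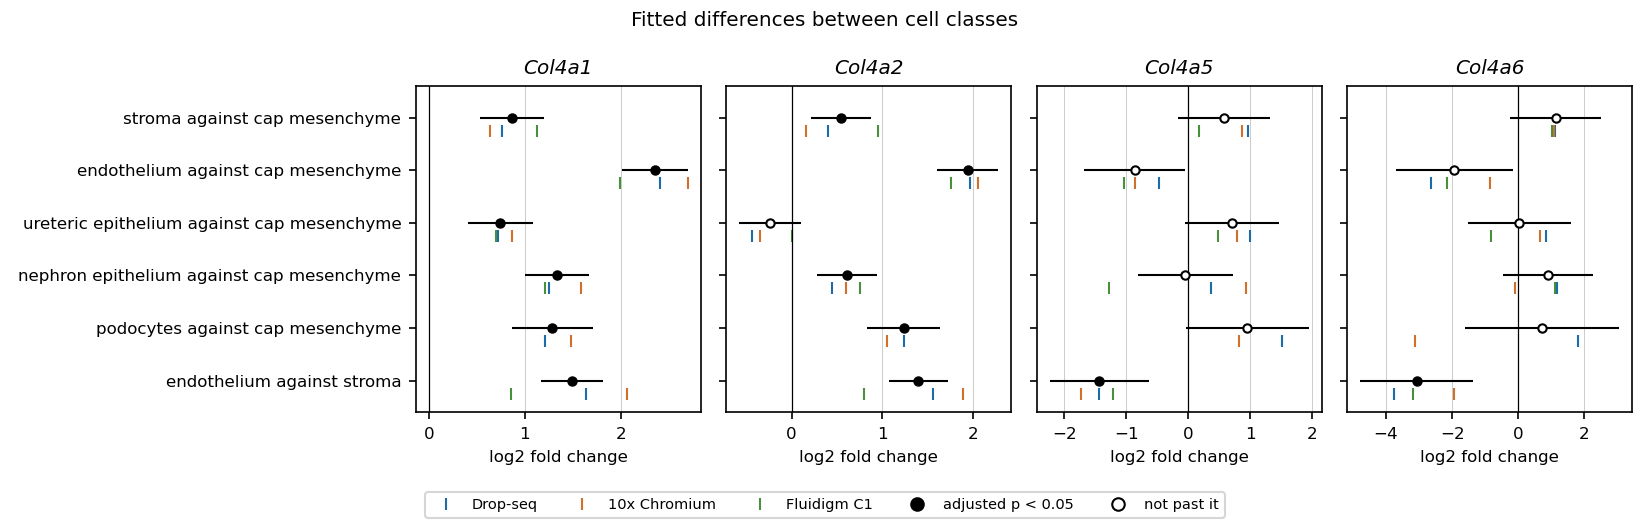
Fitted log2 difference between classes for 4 chains, with circles for the edgeR estimate and its 95% interval, filled where the adjusted p is under 0.05, and coloured ticks for the difference within each library. Col4a1 lies above 0 in all 6 comparisons, and Col4a5 and Col4a6 pass only in endothelium against stroma, where they lie below 0.

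Within endothelium the 10x library was large enough to divide. Its 225 cells led by Aplnr and Plvap, genes of capillary and venous endothelium, held 136 CPM of Col4a1 and 181 CPM of Col4a2. Its 143 cells led by Esm1, with Sox17 and Gja4 of arterial endothelium, held 279 and 352 CPM. A further 15 cells with Gja5 and Sema3g among the leading genes held 424 and 396 CPM, from 31 and 29 counts. The first 2 clusters differed by more than counting error, both being cells of 1 library, and Col4a5 was low throughout at 3.14, 3.48 and 0 CPM.

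Stroma as a whole held more Col4a1 and Col4a2 than cap mesenchyme, by less than endothelium did. Col4a1 was at 137, 52.1 and 365 CPM in stroma, a log2 difference from cap mesenchyme of 0.86 (SE 0.16, edgeR adjusted p = 0.00143). Col4a2 was at 97.2, 74.8 and 205 CPM, a difference of 0.55 (SE 0.16, adjusted p = 0.0259). Of all genes 13.5% passed. The stroma sums hold the Col4a1 and Col4a2 counts by which the family was chosen, so neither call is independent support. Col4a4 passed too. Stroma held 7 of its 17, 42 of its 48 and 121 of its 122 counts, so they lay almost only in stroma in 10x Chromium and C1. The gene entered the test through the class where it is high, and its call is no support. The Col4a1 call was lost without Drop-seq (adjusted p = 0.0936), and the Col4a2 call without Drop-seq (0.178) or without C1 (0.117).

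The stromal mean joins subtypes that differ severalfold, and the next values are a description with no test. Nephrogenic-zone stroma, the Foxd1-expressing cells around the progenitors, held 67.2, 27.9 and 83.1 CPM of Col4a1 against 185, 101 and 588 CPM in the interstitial and collagen-rich stroma together, that is 2.75, 3.61 and 7.07 times less. No 10x cluster was named collagen-rich, so the second value is interstitial stroma alone. The folds depend on where the classes are drawn: that of C1 was 2.39 at Leiden resolution 0.6, and the Drop-seq fold fell to 1.81 where marker z scores assigned the cells. Col4a2 was at 33.2, 36.6 and 67.6 CPM against 141, 153 and 323 CPM, 4.26, 4.20 and 4.78 times less, and the C1 fold was 2.15 at resolution 0.6 and the Drop-seq fold 2.62 by z score. Col4a5 was the other way round, with 39.1, 9.45 and 19.1 CPM against 17.0, 5.82 and 10.5 CPM. The counts behind Col4a5 in 10x Chromium were 23 and 9, and joining the stroma of no subtype to the other stroma turned that direction in 10x (9.45 against 15.8 CPM) and left it in C1 (19.1 against 11.5 CPM). The Col4a1 share in this zone was not told apart from background in both UMI libraries, as given above, so their folds may include it.

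Stromal classes were not drawn alike in the 3 libraries. Summed mural markers stood at 122, 200 and 124 CPM in nephrogenic-zone stroma. In interstitial stroma they reached 444, 444 and 717 CPM, and in the C1 collagen-rich stroma 1116 CPM, with 9 of 10 markers counted and Ren1 at 0. That C1 cluster was led by Cxcl13, Angpt2 and Ccl11, and held the highest Col4a1 level of any C1 class (785 CPM). The 10x mural class held 1777 CPM of the markers, with all 10 counted, and 126 CPM of Col4a1. Its 54-cell cluster with Mgp, Cxcl13 and Ccl11 reached 229 CPM, and a 59-cell cluster with Actg2 and Cnn1 of smooth muscle 44.1 CPM. The part of mural cells in the stromal difference was not tested. Interstitial stroma alone, where no collagen-rich cluster enters, held 227, 101 and 406 CPM of Col4a1. In Drop-seq that class was a cluster of 167 cells whose highest marker score was that of mural cells (1.498, with 7 mural markers supporting). It was named interstitial stroma because more interstitial than mural markers were among its 10 leading genes, so its level may include mural cells.

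Endothelial markers were low in all stromal subtypes. The 12 markers summed to 60.4, 113 and 90.1 CPM in nephrogenic-zone stroma and 117, 144 and 134 CPM in interstitial stroma, against 4340, 5044 and 2529 CPM in endothelium itself.

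**Figure D3:**
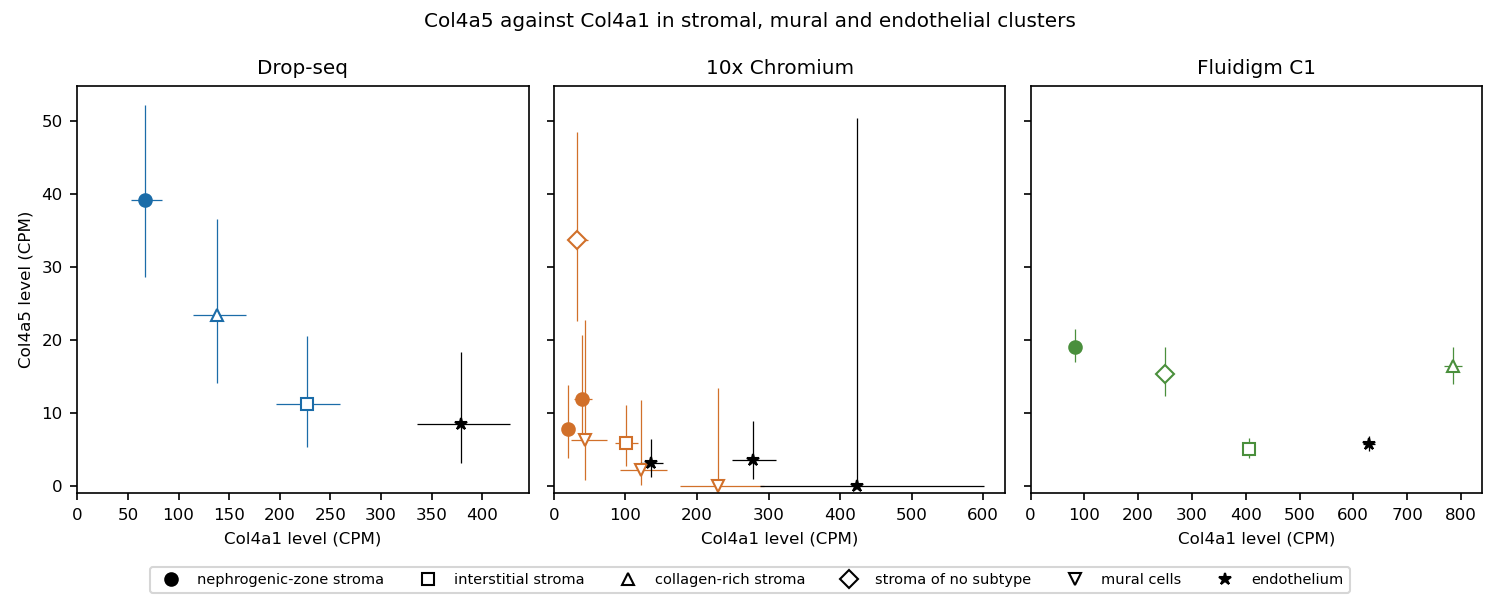
Level of Col4a5 against Col4a1 (CPM, linear axes) in each stromal, mural and endothelial cluster, 1 panel per library, with 95% Poisson intervals. In Drop-seq the 4 clusters run from 67.2 CPM of Col4a1 and 39.1 CPM of Col4a5 in nephrogenic-zone stroma to 379 and 8.43 CPM in endothelium, whereas the C1 collagen-rich cluster holds 785 CPM of Col4a1 with 16.4 CPM of Col4a5.

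The C1 cells were split by whether the cell name holds the tag HT (553 cells) or not (331 cells, called E14 here). What that tag marks is not stated. Nephrogenic-zone stroma was below the other stroma for Col4a1 in both, at 51.8 against 568 CPM among HT cells and 103 against 625 CPM among E14 cells. For Col4a5 the order held only among E14 cells, with 27.0 against 14 CPM, while HT cells had 6.66 against 8.59 CPM from 38 and 120 reads. Endothelium was above cap mesenchyme for Col4a1 in both (610 against 209 CPM and 658 against 94.2 CPM).

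Col4a5 reached a high level in another stromal cluster of 10x Chromium. Its 160 cells were led by Mfap5, Dlk1, Smoc2, Postn and Ogn, genes of matrix-producing fibroblasts, and carried markers of both stromal subtypes, so that they were left without a subtype. They held 33.7 CPM of Col4a5 (29 counts, 95% interval 22.6 to 48.5) beside only 32.6 CPM of Col4a1. This was above the 9.45 CPM of the nephrogenic-zone stroma of that library, whose interval ended at 14.2 CPM.

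Among epithelia, both network-forming chains of the embryo were higher in the joined nephron epithelium than in cap mesenchyme. Col4a1 stood at 166, 95.3 and 400.1 CPM in early nephron epithelium and at 206, 146 and 359 CPM in proximal tubule. Col4a2 was close to cap mesenchyme in Drop-seq distal nephron and loop, at -0.45 against -0.49 (log2 level centred within the library). In 10x Chromium these values were -0.40 and -0.65. Nephron epithelium as a whole was higher than cap mesenchyme by 1.33 for Col4a1 (log2, SE 0.16, edgeR adjusted p = 3.54e-05) and by 0.61 for Col4a2 (SE 0.16, adjusted p = 0.0190). These were 2 of 5 chains, where 8.18% of all genes passed. The Col4a2 call was lost without Drop-seq (0.180) and without 10x Chromium (0.10).

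Podocytes, which line the glomerular capillaries, held 187 and 98.5 CPM of Col4a1 and 175 and 146 CPM of Col4a2 in Drop-seq and 10x Chromium. Both chains were higher than in cap mesenchyme, by 1.29 (SE 0.20, edgeR adjusted p = 0.00200) and 1.24 (SE 0.19, adjusted p = 0.00199), and these were 2 of 5 chains, where 3.40% of all genes passed (47.3% of them higher, and 59.0% with DESeq2's size factors in edgeR). Podocyte markers summed to 1260 and 1802 CPM there, with all 10 counted. Of the 12 endothelial markers 8 were counted in podocytes, at 472 and 1001 CPM in sum, with Pecam1, Tek and Ptprb at 0 in both libraries; the part of endothelial RNA in the podocyte level was not tested. No podocyte cluster formed in C1, so these values rest on 2 libraries.

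Ureteric epithelium, the branching duct, parted the 2 genes of the pair. It was not the only class whose balance differed from that of cap mesenchyme, as given below. Col4a1 stood at 134, 64.1 and 265 CPM and was higher than in cap mesenchyme by 0.74 (log2, SE 0.16, edgeR adjusted p = 0.00407), and it was the only 1 of 5 chains to pass, where 15.5% of all genes did. Col4a2 stood at 54.2, 54.7 and 103 CPM, with a difference of -0.24 (SE 0.16, 95% interval -0.58 to 0.11, adjusted p = 0.376). The Col4a1 call was lost without Drop-seq (0.167).

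The balance within the pair shows the same in each library. Col4a1 made up 71.1%, 53.9% and 71.9% of the Col4a1 and Col4a2 counts in ureteric epithelium, and 52.3%, 33.3% and 61.2% in cap mesenchyme, with 95% binomial intervals apart in all 3. Within C1 the cap mesenchyme share was 65.6% among HT cells and 47.7% among E14 cells, a wider gap than that between the classes, while ureteric epithelium stood at 71.8% and 72.0%, above cap mesenchyme in both. The 10x cap mesenchyme share includes a Col4a1 level whose share of cells was not told apart from background. Proximal tubule (66.7%, 54.9% and 66.8%) lay on the ureteric side. Early nephron epithelium (63.7%, 48.3% and 70.3%) was also above cap mesenchyme in each library. So was distal nephron and loop in Drop-seq (70.6%) and 10x Chromium (44.3%, with an interval that overlaps that of cap mesenchyme). Podocytes (51.7% and 40.3%) lay within the interval of cap mesenchyme, and endothelium (59.7%, 43.9% and 64.9%) lay between. The platforms themselves differed by more than most classes did: over all kept cells the share was 61.0%, 44.2% and 65.2%, so these shares rank classes within a library and not chains against each other. The difference in balance between classes was not tested across libraries.

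**Figure D4:**
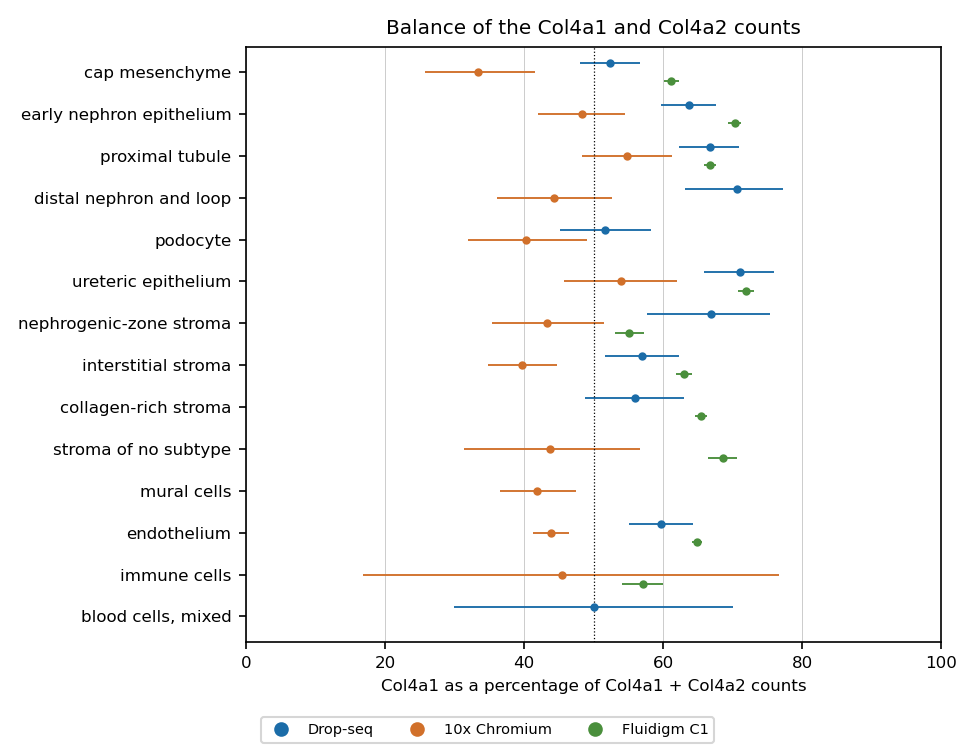
Col4a1 as a percentage of the Col4a1 and Col4a2 counts in each class, 1 point per library with its 95% exact binomial interval and a dotted line at equal counts. In each library ureteric epithelium lies to the right of cap mesenchyme (71.1% against 52.3% in Drop-seq), and the 10x points lie to the left of the other platforms.

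Across classes the 2 genes of this pair moved together. Over 28 class sums of the 3 libraries, centred within each library, Pearson's r between log levels of Col4a1 and Col4a2 was 0.90 (Spearman 0.90). The same measure was -0.37 for Col4a1 and Col4a5, -0.45 for Col4a2 and Col4a5, and 0.13 for Col4a5 and Col4a6, the X-linked pair, whose Col4a6 counts were few. Class sums of a library share its depth and its free RNA.

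Within classes, cells with both Col4a1 and Col4a2 counted were in the median little more frequent than independence gives, and classes differed. At thinned depth, 11% of Drop-seq and 11.6% of 10x cells had both chains counted, which was 1.26 and 1.48 times what independence over all cells gives. Over the 10, 10 and 8 named kidney classes of at least 50 cells the median ratio was 1.12, 1.14 and 1.02, and it ranged from 0.86 to 1.35 in Drop-seq, 0.85 to 1.36 in 10x Chromium and 0.93 to 1.08 in C1. Outside those named classes the ratio was 2.01 in the 10x stroma of no subtype, where 3 of 137 cells had both, and 4.13 in the Drop-seq blood cells, where 2 of 62 did. In interstitial stroma of Drop-seq (1.35) 48.7% of cells with Col4a1 also had Col4a2, against 24.7% of cells without it. The 10x mural class (1.36) joins 3 clusters of unlike Col4a1 level, within which the ratio was 0.88, 2.38 and 1.10. In proximal tubule the ratio was 0.86 and 0.85. Joining all stroma raised it to 1.51 and 1.76 in the UMI libraries. In C1, where 63.7% of cells had both, the ratio cannot rise far above 1.

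Col4a5, the chain shared by both late networks, had no single order of classes over the libraries. Podocytes held 38.7 and 12.8 CPM, from 25 and 7 counts, and distal nephron and loop 34.0 and 11.8 CPM. Proximal tubule held 17.7, 18.0 and 7.63 CPM, the highest epithelial value of 10x Chromium. Ureteric epithelium held 26.8, 12.5 and 17.2 CPM. Of the 48 Drop-seq counts of ureteric epithelium, 25 came from a cluster of 16 cells with Krt19, Foxq1 and Upk3a, markers of the maturing duct and urothelium, which held 67.8 CPM; 20 of the counts were in 1 cell. Cap mesenchyme held 11.9, 6.24 and 12.7 CPM and endothelium 8.43, 3.18 and 5.72 CPM.

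None of the Col4a5 differences from cap mesenchyme passed with the classes as named here. They were 0.57 in stroma (log2, edgeR adjusted p = 0.315), 0.70 in ureteric epithelium (0.209), 0.95 in podocytes (0.327) and -0.05 in nephron epithelium (0.966). Without C1 the first 3 passed, at 0.99 (adjusted p = 0.0244), 0.97 (0.0358) and 1.34 (0.0281). With cells assigned by marker z score the ureteric difference passed with all 3 libraries (1.21, adjusted p = 0.0453). In 10x Chromium the thinned share of cells with Col4a5 ran from 1.38% of mural cells to 11.7% of the stroma of no subtype, next to which came distal nephron and loop at 5.74%. None of the 31 immune cells deep enough for thinning had a count, and the 95% binomial interval of that share reached 11.2%, so these few cells set no usable background for the 10x shares.

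**Figure D5:**
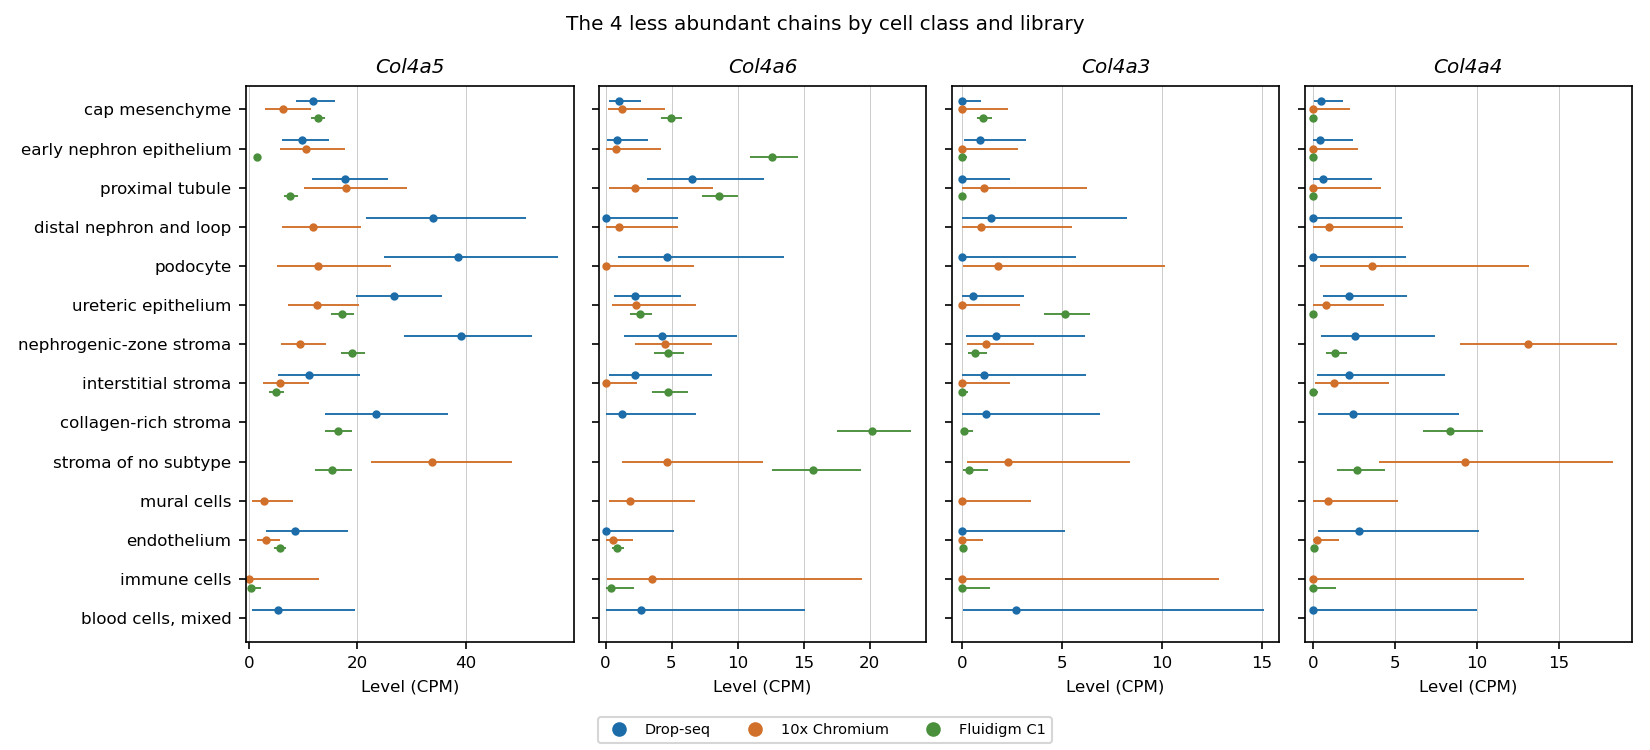
Level of Col4a5, Col4a6, Col4a3 and Col4a4 (CPM, linear axes that differ between panels) in each class, 1 point per library with its 95% Poisson interval. Col4a5 is highest in Drop-seq podocytes and nephrogenic-zone stroma. Col4a4 in the 10x nephrogenic-zone stroma (13.1 CPM) stands above the other classes of that library apart from stroma of no subtype, podocytes and immune cells, whose intervals overlap its interval.

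Col4a6 was sparse and its pattern depended on the platform. In C1 it was highest in collagen-rich stroma (20.2 CPM), the stroma of no subtype (15.7 CPM) and early nephron epithelium (12.6 CPM), and in the last 180 of 195 reads came from 1 cluster of 39 cells. In Drop-seq it was highest in proximal tubule (6.55 CPM, 10 counts) and in 10x Chromium in the stroma of no subtype (4.65 CPM, 4 counts) and nephrogenic-zone stroma (4.52 CPM, 11 counts). Endothelium was at 0, 0.58 and 0.88 CPM. Over all kept cells and without thinning, Col4a5 and Col4a6 were counted in the same cell in 7, 1 and 24 cells. These were 2.13, 0.57 and 1.69 times the number that independence gives. At thinned depth there were 1, 1 and 16 such cells, and the ratios were 1.23, 2.13 and 2.23. The UMI ratios thus rest on very few cells and depended on depth.

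Col4a3 and Col4a4, the partners of Col4a5 in the mature glomerular network, had few counts in podocytes. Podocytes held 0 and 1 counts of Col4a3 and 0 and 2 of Col4a4 in Drop-seq and 10x Chromium. The 95% upper bounds were 5.70 and 10.2 CPM for Col4a3 and 5.70 and 13.2 CPM for Col4a4, so a level under those could not be seen at this depth.

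Most of the 10x Col4a4 counts lay in stroma. There 32 of 48 counts were in nephrogenic-zone stroma (13.1 CPM, 9.2% of its cells unthinned and 3.91% thinned) and 8 in the stroma of no subtype. The cluster with Ntn1, Foxd1 and Nusap1, the last a gene of dividing cells, held 22 of them in 105 cells, at 21.7 CPM. The podocyte bound of 13.2 CPM reaches the level of nephrogenic-zone stroma, so those classes cannot be told apart at this depth. Cap mesenchyme had 0 counts. With 3 counts put in its place in that library, stroma stood 4.63-fold higher and nephrogenic-zone stroma 7.02-fold higher. These folds leave out the counting error of the stromal counts, so they are not strict lower bounds. The edgeR value for stroma against cap mesenchyme (adjusted p = 0.0150) rests on 7, 42 and 121 stromal counts against 2, 0 and 0, so its fitted difference has no firm size, and the call was lost without 10x Chromium (0.170) or without Drop-seq (0.0834). In C1, 77.0% of the 122 reads lay in 2 of the 5 cells with any.

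Col4a3 reads gave no class pattern. Its 9 Drop-seq and 8 10x counts were spread over 8 cells each, and 68.7% of the 166 C1 reads were in 2 of 13 cells. The gene shares 563 exonic bases with C430014B12Rik, so its reads could be divided between them if counting ignored strand, which is not stated. Without thinning, Col4a3 and Col4a4 were counted in the same cell in 1 Drop-seq cell and in none of 10x Chromium or C1, against sums too small to expect more.

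Enzymes that modify and fold collagen chains were higher in stroma than in cap mesenchyme as a group. Of the 8 genes tested from the list of prolyl and lysyl hydroxylases and their complex partners, 6 were higher and none lower (median log2 difference 0.93), where 5.30% of all genes were higher and 8.21% lower, and the median over all genes was -0.09. By the edgeR log2 differences, they included Crtap (1.66), a non-catalytic partner of prolyl 3-hydroxylase, P4ha2 (1.82) and Plod1 (1.49), and all 5 chaperone and export genes tested were higher, among them Serpinh1, the collagen chaperone (0.73), and Sparc, which binds collagen IV (0.71). Cross-linking enzymes were higher in 4 of 6, with Lox (4.03) and Loxl1 (2.93) of fibrillar collagen and elastin and Pxdn (0.58), the peroxidasin that joins collagen IV by sulfilimine bonds. Of the laminin, nidogen, perlecan, agrin and Col15a1 and Col18a1 genes of basement membranes, 3 of 9 were higher, Nid1 (2.97), Nid2 (2.18) and Lamb1 (0.65). Degradation genes were raised as well, with 5 of 8 higher and none lower (median 1.45).

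In endothelium, of the 9 basement membrane partners 8 were higher than in cap mesenchyme and none lower (median 2.15), where 11.3% of all genes were higher and the median over all genes was -0.07. They included Col15a1 (5.43), Nid2 (3.53), Nid1 (2.94), Hspg2, which encodes perlecan (2.68), and Col18a1 (2.15). Of the other lists, 3 of 8 hydroxylase genes were higher and 1 lower, 3 of 5 chaperone and export genes higher, 1 of 6 cross-linking enzymes higher and 1 lower, and 4 of 8 degradation genes higher and 1 lower, where 11.5% of all genes were lower. Against stroma, 5 of the 9 were higher, where 11.6% of all genes were, while 5 of 8 hydroxylases and 3 of 6 cross-linking enzymes were lower, where 7.78% of all genes were. The lower ones included P4ha1 (-1.24), Plod2 (-1.48), Loxl1 (-3.46) and Loxl3 (-2.73). Of the 8 degradation genes, 1 was higher and 3 were lower in endothelium than in stroma. Of the 7 receptor genes tested, 4 were higher and none lower in stroma than in cap mesenchyme, 3 higher and 2 lower in endothelium than in cap mesenchyme, and 2 higher and 3 lower in endothelium than in stroma. Itga1, the collagen-binding integrin subunit, was higher than in cap mesenchyme in endothelium (3.27) and in stroma (3.29). Ddr2 was higher in stroma (3.21), and Ddr1, a collagen receptor kinase, was lower in endothelium (-2.68).

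In ureteric epithelium 5 of 9 basement membrane partners were higher than in cap mesenchyme, where 7.77% of all genes were: Col18a1 (1.97), Lamb1 (1.63), Lamc1 (1.27), Agrn (1.21) and Hspg2 (1.11). Nid1 (-1.54), Sparc (-0.99) and Fkbp10 (-0.91), an endoplasmic reticulum chaperone of collagen, were lower, where 7.73% of all genes were, and no hydroxylase or cross-linking enzyme passed in either direction. Nephron epithelium also had 5 of 9 higher, where 4.81% of all genes were, with Lamb1 (1.78) first, while Sparc (-1.35) and Fkbp10 (-1.08) were the 2 of 5 chaperone and export genes that were lower, where 3.37% of all genes were. Podocytes had 4 of 9 higher, where 1.61% of all genes were, among them Nid1 (2.30), and 3 of 6 cross-linking enzymes were higher, Loxl1 (3.52), Loxl2 (1.94) and Pxdn (0.78). Of the degradation genes 3 of 8 were higher, and of the receptor genes 2 of 7. No gene of the 6 lists was lower, where 1.79% of all genes were. These comparisons share their cap mesenchyme sums.

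The genes whose levels over the 28 class sums were most like those of the chains were taken from 6433 candidates that were no markers. For Col4a1 they were Tram1 (Pearson's r 0.79), Lamp1 (0.76), Fam107b (0.75), Bambi (0.75) and Pitpnc1 (0.75). For Col4a2 they were Bambi (0.81), Serinc3 (0.78), Msn (0.77), Pam (0.77) and Nid2 (0.76), the last a basement membrane partner. For Col4a5 they were Pdpk1 (0.74), Taz (0.66), Alkbh7 (0.66), Dapk1 (0.64) and Zfp30 (0.62), and Taz reached only 0.10 within Drop-seq. As the highest of many candidates, these values describe these sums.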

How the data were processed

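Raw counts per gene and cell were used from the authors' 3 deposited tables (UMIs for Drop-seq and 10x Chromium, reads for Fluidigm C1, as the values show); per the submitters' processing notes reads were handled with Bowtie2 2.2.7 (Drop-seq, C1) or Cell Ranger 1.3.0 (10x) on mm10, and the counting tool, strand setting and annotation are not stated. The deposited normalized tables were not used. Cells needed 500 genes and at most 20% mitochondrial counts; doublets called by Scrublet were removed in 10x and C1, and kept in Drop-seq, where only 5 (0.255%) were called. Each library was clustered alone in scanpy 1.11.5 (2000 variable genes, 30 components, Leiden resolution 1) without the chains and partner genes, and clusters were named by at least 3 supporting markers under a rule set after the clusters were seen. Class sums were tested with edgeR 4.0.16 (TMM, low-count filter, library block, residual degrees of freedom 9); DESeq2 1.42.0 was an alternative. Thinning drew 4000 UMIs or 50000 reads per cell and left out shallower cells. The labels do not say that libraries came from separate animals, so p-values measure the spread between these class sums. The members and gene lists were chosen with earlier results of these data known. Partner genes were named if they passed with 1 direction in every library, up to 8 per test by size, and like genes as the 5 with the highest correlation. Of 14 hydroxylases 8 were in all tables, and of the other lists all were.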

Additional observations from a re-analysis of the deposited data

Results flagged for a closer look

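One difference pointed opposite ways on different platforms. Col4a5 in nephron epithelium against cap mesenchyme had a log2 ratio of CPM of 0.44 in Drop-seq and 1.06 in 10x Chromium, but -1.38 in Fluidigm C1. The levels were 16.2, 13.0 and 4.89 CPM in nephron epithelium and 11.9, 6.24 and 12.7 CPM in cap mesenchyme. The difference between platforms was not tested. The C1 value joined 2 cap mesenchyme clusters of unlike levels, 19.8 CPM in 105 cells and 4.49 CPM in 77 cells, and the first was led by genes such as Rad51d and Repin1, whereas the second was led by the progenitor genes Cited1 and Crym.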

How the results depend on the processing

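Col4a1 and Col4a2 were higher in endothelium than in cap mesenchyme under all 11 alternatives, and each passed in all of them except that Col4a1 missed the threshold with no library block (edgeR adjusted p = 0.136). The other calls on chains kept their direction under every alternative that gave a value. At Leiden resolution 0.6 the calls lost were those of stromal Col4a1 and Col4a2 (adjusted p = 0.125 and 0.0999), nephron Col4a2 (0.145), ureteric Col4a1 (0.196) and podocyte Col4a1 (0.0654); with classes by marker z score stromal Col4a2 was lost (0.197). By marker z score ureteric Col4a5 passed (0.0453), which it did not otherwise with all libraries. With no library block no chain but endothelial Col4a2 against cap mesenchyme passed.

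Counts of genes called, in the order stroma, endothelium, ureteric epithelium, nephron epithelium and podocytes against cap mesenchyme, then endothelium against stroma, were 1303, 2197, 1496, 789, 328 and 1871. With no library block they were 18, 358, 161, 50, 2 and 186. Leaving out 1 library gave 279 to 1363, 769 to 2616, 277 to 1892, 145 to 1150, 678 (without C1 alone) and 424 to 2345, where the lowest counts came without Drop-seq and the highest without C1; the counts without 10x Chromium were 321, 936, 602 and 216 for the first 4 and 459 for the last. Leiden resolution 0.6 gave 809 for stroma and 184 for podocytes, and resolution 1.6 gave 817 for stroma. Classes by marker z score gave 555 for stroma, 360 for nephron epithelium and 589 for podocytes. Fewer libraries enter the sets with 1 left out; the cause of the other changes was not tested. At resolution 1.6 podocytes formed in too few libraries for a fit.

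Reversed signs were those of differences that did not pass. Col4a6 in ureteric epithelium against cap mesenchyme (0.02) became -0.13 with no library block, -0.92 and -0.91 at resolutions 0.6 and 1.6, -0.21 by z score and -0.01 (-0.0055) with 1000 or more genes per cell, and ran from -0.37 to -0.25 without Drop-seq or 10x Chromium. Col4a4 in nephron epithelium (0.24) became -0.69, -0.43 and -0.35 at resolutions 0.6 and 1.6 and with 1000 genes, and ran from -0.21 to 1.86 with 1 library left out. Col4a5 in nephron epithelium (-0.05) became 0.10, 0.16 and 0.39 with no library block, at resolution 0.6 and by z score, and ran from -0.53 to 0.64 with 1 library left out. Col4a6 in podocytes (0.72) became -0.22 with no library block.

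The log2 ratio of nephrogenic-zone to other stroma, averaged over libraries, was -2.04 for Col4a1, -2.14 for Col4a2 and 0.92 for Col4a5. For Col4a1 it was -1.49 at resolution 0.6 and -1.62 by z score, within the spread of the libraries. For Col4a2 it moved to -1.56 at resolution 0.6 and -1.72 by z score, and for Col4a5 to 1.6 at resolution 0.6, where Drop-seq had only 1 of the 2 classes. Joining the stroma of no subtype to the other stroma, chosen after seeing the data, gave -1.85, -1.93 and 0.40, and turned Col4a5 in 10x Chromium (-0.74). The median within-class ratio of joint to independent counting of Col4a1 and Col4a2, averaged over libraries (1.09), stayed between 1.08 and 1.11. Ratios of single classes varied more, as given above. Of 255 alternative levels 48 left the main counting interval, and of 255 shares 45 did, 43 of them on leaving out the thinning. The library block is the pairing of this design, since the labels carry no replicate numbers.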
